A study of Homo sapiens with 8 samples.

Results

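Vesicle traffic genes encode the machinery that moves proteins and lipids between the membranes of a cell. They were chosen here by symbol alone, as the listed genes whose names begin with RAB, VPS, SNX, SEC, COP, ARF, TMED, TRAPPC, STX, VAMP, SNAP or EXOC followed by a number or subunit letter, or with the name of an adaptor complex subunit. The choice found 54 of the 3666 genes for which the authors gave values. By known role, 30 of the 54 act on the secretory route, 19 on the endosomal route and 5 on neither or on several. The secretory route carries new proteins from the endoplasmic reticulum (ER) through the Golgi to the cell surface, and the endosomal route sorts what is taken up at the surface towards recycling or towards lysosomes. On both routes, coat proteins bud a vesicle, a Rab GTPase marks the membrane, a tether catches the vesicle and SNARE proteins fuse it with its target.

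Expression was measured by mRNA sequencing in MIA PaCa-2, an established human cell line from a pancreatic ductal adenocarcinoma (the labels' cell type field reads Adenoma). The cells were wild type, grew in RPMI medium with 10% serum, and carried no treatment label other than a brief exposure to lactate, washed out again, that the sort of both fractions needed. They were sorted by permeability to lactic acid into a low fraction (PHLac-low) and a high fraction (PHLac-high), the extremes of a phenotype that the study took as a measure of metabolic rate. The sort was repeated 4 times, giving 4 pairs and 8 libraries. The labels name no separate cultures, so p-values measure the spread between these repeats of 1 cell line. In such bulk fractions, more cells with a transcript and more of it per cell cannot be told apart.

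Values are normalised counts, reads per gene divided by a size factor of the library, and a change is the difference of log2(normalised count + 1), PHLac-high minus PHLac-low, averaged over the 4 repeats and given with its standard error. The authors' deposited table holds only genes with an adjusted p-value up to 0.050 in this comparison, so every vesicle traffic gene in it had to differ and other family members were not analysed here. In limma with the repeat as a block, 99.9% of all listed genes passed an adjusted p of 0.05, as did all 54 vesicle traffic genes, and nothing is read from that count. Of the 54, 33 were higher and 21 lower in PHLac-high, against 58.7% and 41.2% of all listed genes. The median change was 0.227 for the 54 genes and 0.245 for all listed genes. Reads in the listed genes ranged from 8979276 to 23176205 per library, which is part of each library and not its depth.

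**Figure D1:**
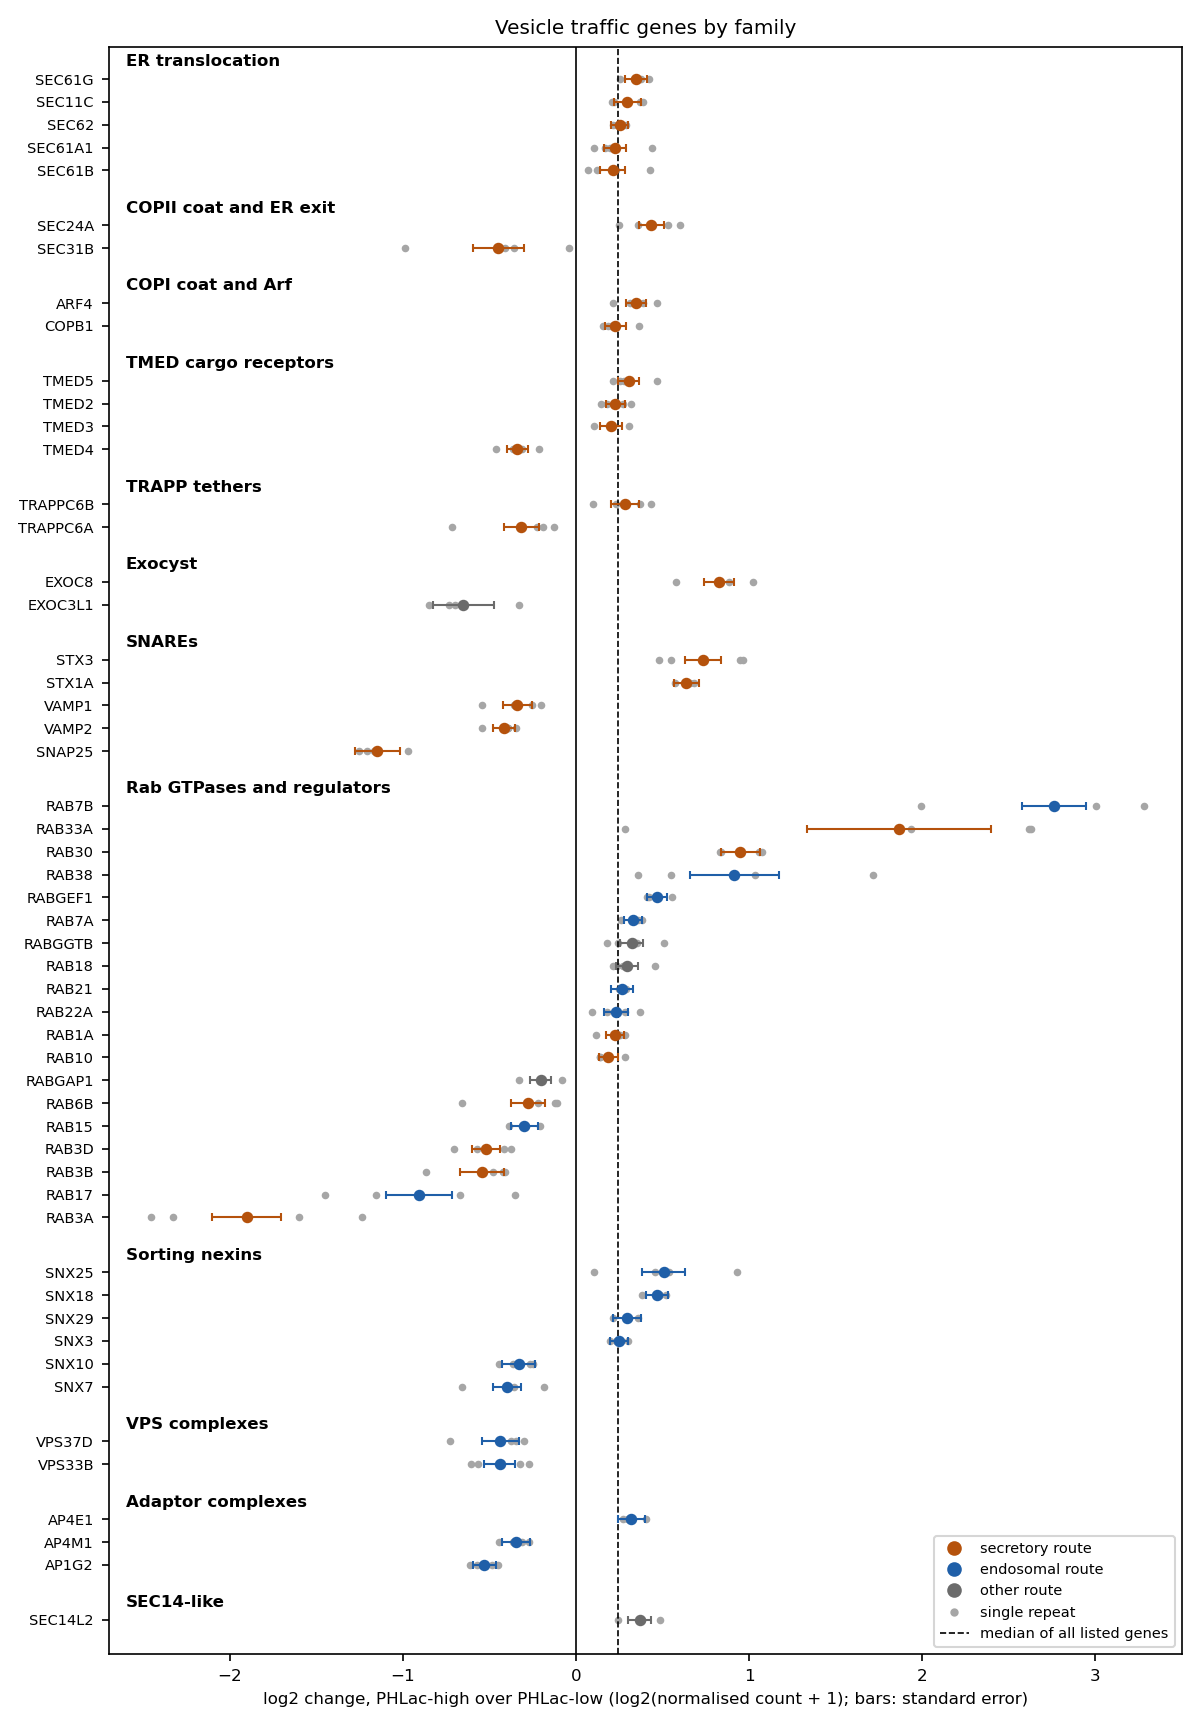
Change of 53 of the 54 vesicle traffic genes, grouped by family, as log2 of the PHLac-high over the PHLac-low value (horizontal axis). Coloured points with bars are the mean and standard error over 4 repeats, small grey points single repeats, and the dashed line the median of all listed genes (0.245). RAB7B (2.76) and RAB3A (−1.90) lie at the ends, and most genes of the ER and Golgi lie near the dashed line.

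The changes were mostly small. An absolute change of at least 0.5 was reached by 15 of the 54 genes, against 38.9% of all listed genes, and of at least 1 by 4 of the 54, against 11.1%. All 54 changed in the same direction in each of the 4 repeats, as did 96.1% of all listed genes. For RAB33A the direction in repeat 4 rests on the size factors alone, with 3 reads in each fraction. The PHLac-low and PHLac-high values did not overlap for 17 higher and 8 lower vesicle traffic genes. Among all listed genes this held for 23.3% in the higher and 13.4% in the lower direction, 36.7% in either.

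The direction of the smallest changes depended on the scaling. Dividing each library by the upper quartile of the listed genes in place of the authors' size factors moved the median of all listed genes from 0.245 to 0.021. This quartile was taken over called genes only, 58.8% of them higher, so it can also absorb a real shift. Which scaling is nearer the truth was not tested. With upper-quartile scaling 10 vesicle traffic genes passed as higher and 21 as lower, against 23.2% and 41.2% of all listed genes. TMED3, RAB10 and SEC61B turned lower without passing. A correction for GC content and transcript length gave 16 higher and 16 lower calls, against 39.6% and 27% of the 3509 listed genes with a GC value. A change close to 0.2 with the authors' size factors thus lies close to the median of the listed genes.

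The first step of secretion is the passage of a new protein into the ER. All 5 listed ER translocation genes were higher in PHLac-high, with changes from 0.212 to 0.346 and a median of 0.253. Under upper-quartile scaling 4 were higher and 1 lower, their median was 0.028 and none of the 5 passed. They include the 3 subunits of the Sec61 channel, which threads the chain through the membrane. SEC61A1, its pore subunit, had 11844, 11366, 13269 and 15734 normalised counts in PHLac-low repeats 1 to 4 and 13581, 12740, 14238 and 21345 in PHLac-high. Each PHLac-high library was above its own partner, but the groups overlapped, and the change was 0.226 ± 0.065 (SE, n = 4 pairs). It was largest in repeat 4 (0.440) and smallest in repeat 3 (0.102).

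SEC61G, the small gamma subunit, had 1569, 1086, 1610 and 2062 normalised counts in PHLac-low and 1871, 1454, 2030 and 2674 in PHLac-high. Its change of 0.346 ± 0.063 was the largest of the family, although the groups overlapped because the repeats differed in level. SEC61B, the beta subunit, changed by 0.212 ± 0.071, and by 0.140 without repeat 4. It no longer passed without repeat 2 (limma adjusted p = 0.0645). SEC62, which helps chains enter after synthesis, had 6260 to 6522 normalised counts in PHLac-low and 7453 to 7661 in PHLac-high, 2 narrow groups that did not overlap. SEC11C, a catalytic subunit of the signal peptidase that trims the entering chain, changed by 0.295 ± 0.078.

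Vesicles leave the ER under the COPII coat, and the 2 listed coat genes moved in opposite directions. SEC24A, a cargo-binding inner coat protein, was 1486, 2239, 2084 and 1495 in PHLac-low and 2148, 2663, 3158 and 1917 in PHLac-high, a change of 0.435 ± 0.074 with overlapping groups. SEC31B, the less studied of the outer coat paralogs, was 405.6, 439.4, 517.5 and 497.1 in PHLac-low and 395.2, 330.2, 403.2 and 250.2 in PHLac-high, a change of −0.449 ± 0.146. The fall of SEC31B was smallest in repeat 1 (−0.038) and largest in repeat 4 (−0.987), and without repeat 4 it was −0.269. The pair differed by 0.883 ± 0.350 (SD over 4 repeats). Both genes kept their direction in all 4, so the sign of this difference was fixed by the choice of pair.

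COPI vesicles carry proteins back from the Golgi. COPB1, the only listed subunit of that coat, rose from 3796 to 4259 normalised counts in PHLac-low to 4495 to 4905 in PHLac-high, a change of 0.228 ± 0.058 that upper-quartile scaling reduced to 0.003. ARF4, a GTPase of the family that recruits COPI, was 3664 to 3992 in PHLac-low and 4443 to 5212 in PHLac-high, a change of 0.346 ± 0.060. Neither gene's groups overlapped.

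TMED proteins are p24 family cargo receptors that cycle between ER and Golgi, and 4 were listed. TMED2, TMED3 and TMED5 were higher by 0.227, 0.202 and 0.304, and TMED4 was lower. TMED4 had 3357, 3562, 3336 and 3102 normalised counts in PHLac-low and 2607, 3073, 2690 and 2251 in PHLac-high. Every PHLac-high value lay below every PHLac-low value, and the change was −0.338 ± 0.062. TMED5 minus TMED4 was 0.642 ± 0.119 (SD over 4 repeats). TMED3 no longer passed without repeat 2 (limma adjusted p = 0.0617).

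TRAPP complexes tether vesicles at the Golgi, and 2 alternative forms of the same small subunit were listed. TRAPPC6B was higher by 0.282 ± 0.079 and TRAPPC6A lower by −0.316 ± 0.101. TRAPPC6A had 1507, 1840, 2210 and 1199 normalised counts in PHLac-low and 1318, 1684, 1888 and 729.5 in PHLac-high. Repeat 4 carried the largest fall (−0.716), and without it the change was −0.183. In the annotation 56.2% of the exon length of TRAPPC6B overlaps an antisense gene on the other strand. The libraries kept strand, per the labels, but the strand setting of the counting is not given in the sources used here.

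Of the Rabs of the ER and Golgi, 3 were higher and 1 lower. RAB1A, which acts between ER and Golgi and was the secretory Rab with the most counts, had 7916, 6994, 7482 and 8048 normalised counts in PHLac-low and 8575, 8512, 8889 and 9596 in PHLac-high, a change of 0.225 ± 0.053 that upper-quartile scaling reduced to 0.001. RAB30, a Golgi Rab, changed more. It had 141.5, 167.4, 165.9 and 143.8 normalised counts in PHLac-low and 299.3, 299.8, 345.9 and 256.9 in PHLac-high. The groups were well apart, and the change of 0.95 ± 0.114, a 1.93-fold difference, held at 0.727 or more in all 12 alternative fits (limma adjusted p = 0.000249). RAB6B, the form of the Golgi Rab RAB6 best known from neurons, was lower by −0.277 ± 0.099, and by −0.149 without repeat 4.

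RAB33A, a Rab linked to Golgi vesicles, had the second largest increase on few reads. The PHLac-low libraries held 3, 2, 16 and 3 reads and the PHLac-high libraries 18, 20, 27 and 3. Repeats 1 to 3 were higher in PHLac-high, while in repeat 4 both fractions had 3 reads. Over all libraries, 68 reads against 24 gave a ratio of 4.15 after scaling by the size factors, with an exact 95% interval from 2.57 to 6.92 that covers counting error only. The fitted change was 1.87 ± 0.53, and it did not pass without the block (adjusted p = 0.0535; 0.00192 to 0.0535 over the alternatives).

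**Figure D2:**
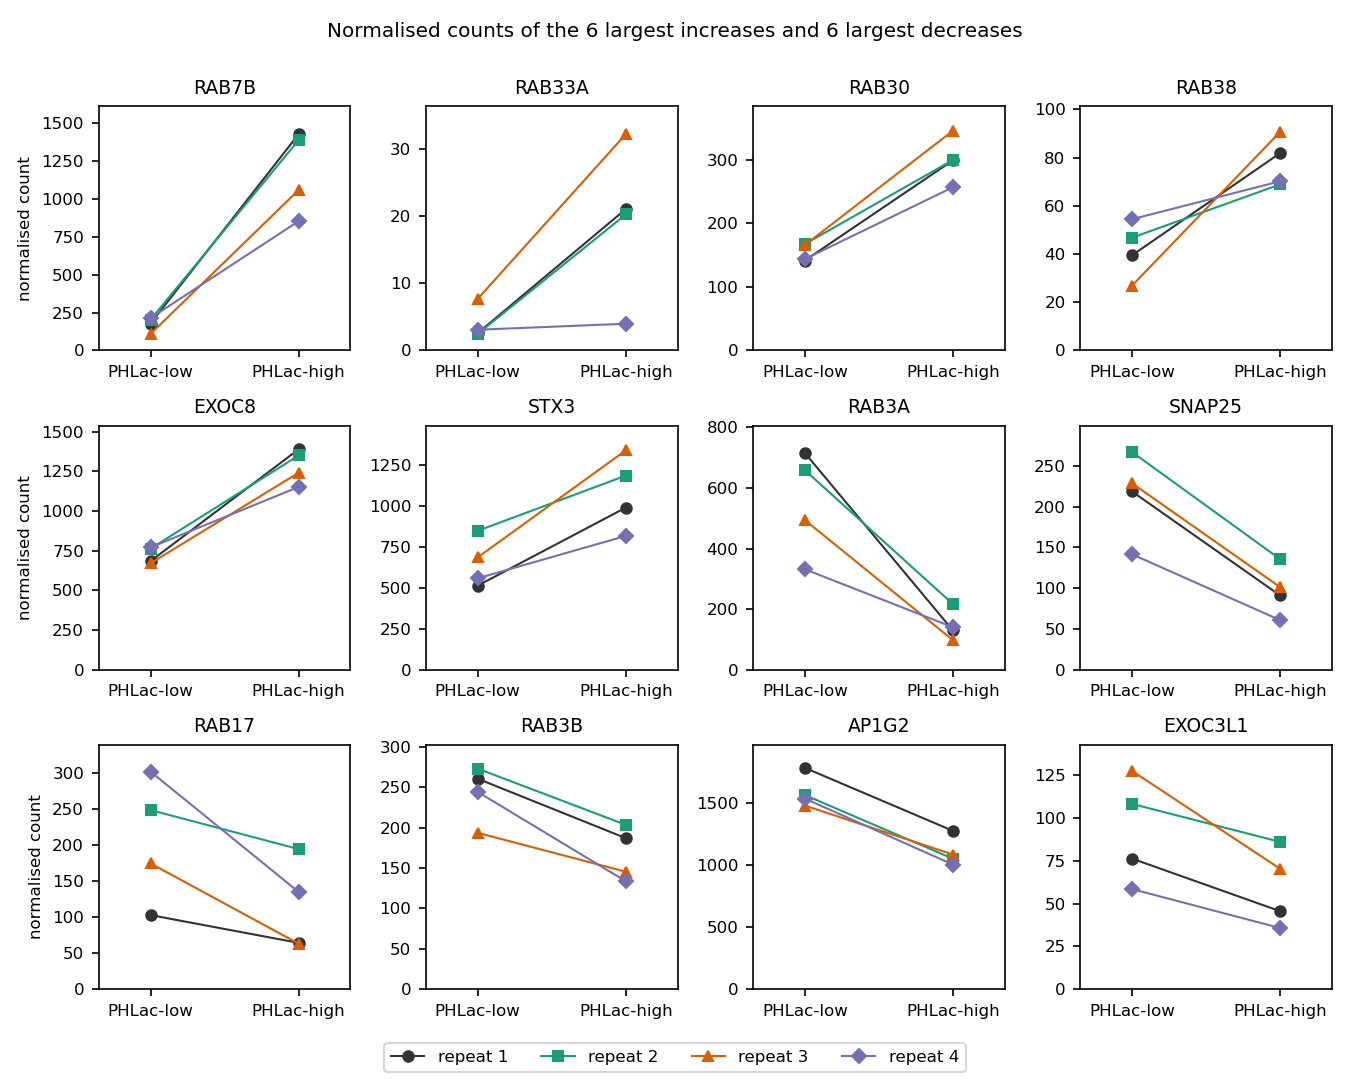
Normalised counts in PHLac-low and PHLac-high (vertical axis, linear and from 0) of the 6 genes with the largest increases and the 6 with the largest decreases, 1 line and symbol per repeat. Every line rises in the first 6 panels and falls in the last 6, with the line of repeat 4 nearly flat for RAB33A.

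Beyond the Golgi the directions were mixed. RAB3 proteins sit on secretory vesicles and regulate their release, and all 3 listed RAB3 genes were lower in PHLac-high. RAB3A had 715.2, 658.5, 494 and 331.7 normalised counts in PHLac-low and 129.8, 216.8, 97.81 and 140.3 in PHLac-high. The lowest PHLac-low library was above the highest PHLac-high library. Its change was −1.90 ± 0.20, or 0.267-fold (limma adjusted p = 0.000156), which placed it at rank 22 among all decreases in the table. The fall was smallest in repeat 4 (−1.235), where the PHLac-low level was also lowest.

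RAB3B had 260.7, 273.2, 193.7 and 244.4 normalised counts in PHLac-low and 187.1, 203.6, 145.5 and 133.7 in PHLac-high. Its groups overlapped through repeat 3, and its change was −0.544 ± 0.127. RAB3D had 1355, 1385, 1046 and 982.9 in PHLac-low and 910.8, 1036, 641.8 and 757.3 in PHLac-high, a change of −0.518 ± 0.081 with overlapping groups. RAB3A fell by more than RAB3B and RAB3D in all 4 repeats, by −1.359 ± 0.753 and −1.385 ± 0.454 (SD). RAB3A was picked as the largest fall, so its lead over these relatives follows from that choice. RAB10, which moves vesicles such as those with glucose transporters to the surface, was the exocytic Rab that was not lower, at 0.187 ± 0.053, but it was −0.037 under upper-quartile scaling and −0.003 after GC and length correction.

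SNAREs drive the fusion of vesicles, and of the 6 listed, 2 were higher and 4 lower. SNAP25, the plasma membrane SNARE known from neurons and endocrine cells, had 218.7, 267.1, 228.8 and 141.7 normalised counts in PHLac-low and 91.2, 135.7, 101.4 and 60.9 in PHLac-high. The groups did not overlap, and the repeats gave similar changes from −1.253 to −0.971. The mean was −1.15 ± 0.13, or 0.451-fold (limma adjusted p = 0.0002). VAMP1 and VAMP2, the vesicle SNAREs that pair with it, were lower by −0.339 ± 0.085 and −0.418 ± 0.063. VAMP2 went from 2824, 2662, 2195 and 1958 normalised counts to 1937, 2098, 1670 and 1492.

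STX3 and STX1A, syntaxins of the plasma membrane, were higher. STX3, known from the apical surface of epithelial cells, had 512.8, 846.8, 684.8 and 557.7 normalised counts in PHLac-low and 988, 1183, 1337 and 815.6 in PHLac-high, a change of 0.735 ± 0.103 with 1 PHLac-high value inside the PHLac-low range. STX1A had 505.1, 594.5, 543.4 and 826.8 in PHLac-low and 810.3, 939, 808.8 and 1290 in PHLac-high. Its change of 0.638 ± 0.073 was even across repeats (0.573 to 0.681).

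The exocyst tethers vesicles at the plasma membrane, and 1 of its subunits was listed. EXOC8 had 684.4, 763.1, 670.9 and 771.3 normalised counts in PHLac-low and 1389, 1350, 1241 and 1152 in PHLac-high. The 2 groups stood far apart, and the change of 0.827 ± 0.087 was a 1.77-fold difference (limma adjusted p = 0.00016). In the annotation 14.7% of the exon length of EXOC8 overlaps SPRTN on the opposite strand. SPRTN was itself listed and higher in PHLac-high (0.442), and the part of its reads in the EXOC8 values was not tested. EXOC3L1, which resembles an exocyst subunit but has a less certain role, was lower by −0.651 ± 0.177 at 35.75 to 127.6 normalised counts, with overlapping groups. It did not pass after GC and length correction (change −0.292, adjusted p up to 0.167 over the alternatives).

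On the endosomal route, all 3 listed Rabs of late endosomes and lysosomes were higher in PHLac-high. RAB7B, which acts in traffic between late endosomes and the trans-Golgi, had 177.5, 203.1, 108.4 and 213.6 normalised counts in PHLac-low and 1429, 1390, 1060 and 854 in PHLac-high. The lowest PHLac-high library was several times the highest PHLac-low library. The change of 2.76 ± 0.19, or 6.78-fold (95% interval on the log2 scale 2.339 to 3.182, limma adjusted p = 3.26e-05), was the largest of the 54 genes and rank 8 among all increases in the table. Over all alternatives it lay between 2.54 and 3.02. It was smallest in repeat 4 (1.994).

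RAB7A, the main Rab of late endosomes, had 10549, 10893, 10045 and 12428 normalised counts in PHLac-low and 13501, 13025, 12550 and 16220 in PHLac-high. Its groups did not overlap, and its change was 0.330 ± 0.050, which upper-quartile scaling reduced to 0.105. RAB7B changed by more than RAB7A in 4 of 4 repeats, by 2.431 ± 0.578 (SD) on the log2 scale. RAB7B was picked as the largest change, so its lead over a relative follows from that choice. RAB38, which serves lysosome-related organelles, had 39.45, 46.77, 26.86 and 54.43 in PHLac-low and 81.85, 68.88, 90.66 and 70.17 in PHLac-high. Its change of 0.915 ± 0.255 ranged from 0.360 in repeat 4 to 1.718 in repeat 3.

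With the authors' size factors, the 2 listed Rabs of early endosomes were higher and the 2 of recycling lower, and none of these passed without the block. The early endosome Rabs RAB21 and RAB22A were higher by 0.268 ± 0.063 and 0.230 ± 0.071, with overlapping groups. Under upper-quartile scaling their changes were only 0.043 and 0.006. RAB22A did not pass without repeat 3 (limma adjusted p = 0.063). RABGEF1, the exchange factor known as Rabex-5 that activates early endosomal Rabs, had 2181, 2318, 2086 and 2344 normalised counts in PHLac-low and 3208, 3080, 2900 and 3146 in PHLac-high. Its change of 0.467 ± 0.058 left no overlap, but 63.6% of its exon length in the annotation is shared with another gene model on the same strand, so the counting could split its reads.

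The recycling Rabs were lower. RAB17, an epithelial Rab of apical recycling, had 102.9, 248.6, 174.6 and 302 normalised counts in PHLac-low and 64.31, 194.5, 63.22 and 135 in PHLac-high. Its level varied about as much between repeats as between fractions, and it passed with the block (−0.907 ± 0.192) but not without it (adjusted p = 0.107; 0.000135 to 0.107 over the alternatives). RAB15 was lower by −0.299 ± 0.078.

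Sorting nexins bind endosomal lipids and shape or sort endosomal membranes, and 4 of the 6 listed were higher. SNX3, which helps retromer retrieve cargo, had 7368, 6594, 6361 and 7683 normalised counts in PHLac-low and 8450, 8109, 7630 and 9027 in PHLac-high, a change of 0.248 ± 0.050 that upper-quartile scaling reduced to 0.023. SNX18, which takes part in endocytosis and autophagy, changed by 0.466 ± 0.063 from 1122 to 1369 in PHLac-low to 1607 to 1911 in PHLac-high, without overlap. SNX25 had 604.6, 656, 703.5 and 657.3 in PHLac-low and 1152, 901.5, 1021 and 705.7 in PHLac-high. Its change was 0.506 ± 0.123, from 0.102 in repeat 4 to 0.929 in repeat 1. SNX29 was higher by 0.293, and SNX7 and SNX10 were lower by −0.398 and −0.331.

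Both listed VPS genes were lower. VPS33B, a tether subunit of late endosomes and recycling compartments, went from 957.9, 853, 850.8 and 780.6 normalised counts to 647.8, 680.7, 559.5 and 646.1, a change of −0.441 ± 0.088 without overlap. In the annotation 52.1% of its exon length is shared with a gene model on the same strand. VPS37D, an ESCRT-I subunit, was lower by −0.438 ± 0.107. No subunit of retromer was among the listed genes.

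Adaptor complexes select cargo for coats at the trans-Golgi and endosomes. AP1G2, a gamma subunit of AP-1, had 1785, 1566, 1481 and 1537 normalised counts in PHLac-low and 1277, 1052, 1086 and 1005 in PHLac-high. All PHLac-high values lay below all PHLac-low values, and the change was −0.529 ± 0.066. The 2 listed subunits of AP-4 parted, with AP4E1 higher by 0.320 ± 0.079 and AP4M1 lower by −0.347 ± 0.079. AP4E1 minus AP4M1 was 0.667 ± 0.065 (SD), with little variation over the 4 repeats. These pairs of relatives were picked after their values were seen. For pairs of opposite direction, that choice fixed the sign of the difference.

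Of the 5 genes outside both routes, EXOC3L1 is described above. RABGGTB, the catalytic subunit of the enzyme that attaches the lipid anchor to Rabs, was higher by 0.322 ± 0.066 and did not overlap. RAB18, a Rab of lipid droplets and the ER, was higher by 0.294 ± 0.064. SEC14L2, a lipid-binding protein matched by its name only, was higher by 0.369 ± 0.067. RABGAP1, a GTPase-activating protein for Rabs, was lower by −0.205 ± 0.063 and did not pass without repeat 1 (limma adjusted p = 0.0697).

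The secretory and endosomal classes were then compared, paired by repeat. In the secretory class 19 genes were higher and 11 lower, with a median change of 0.226. In the endosomal class 11 were higher and 8 lower, with a median of 0.248. The secretory medians of repeats 1 to 4 were 0.147, 0.227, 0.142 and 0.224, and the endosomal ones 0.247, 0.255, 0.271 and 0.181. Secretory minus endosomal was −0.10, −0.028, −0.129 and 0.043 by repeat, so the sign was not the same in all 4, and the difference of the class medians (−0.022) was smaller than this spread. Without the Rabs the difference was 0.558, because the endosomal median then fell to −0.331. The endosomal genes left were sorting nexins (4 higher, 2 lower), adaptor genes (1 higher, 2 lower) and VPS genes (0 higher, 2 lower), a nearly even split. No member had an absolute change under 0.187, so such a median can jump between signs when few genes are left out. Both classes lay close to the median of all listed genes.

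With the authors' size factors, summed normalised counts were higher in PHLac-high in both classes and in every repeat. The sum over all listed genes was also higher in PHLac-high in every repeat, so this rise is not particular to either class. The sums were not computed with upper-quartile scaling, which took the secretory median to 0.001 and the endosomal median to 0.023. The 30 secretory genes summed to 75342, 73412, 77826 and 80281 in PHLac-low and 82130, 83128, 87651 and 94157 in PHLac-high, a log2 ratio of 0.176 ± 0.043 (SD, n = 4 pairs). The 19 endosomal genes summed to 34035, 32467, 31751 and 36579 in PHLac-low and 40065, 37720, 36674 and 42768 in PHLac-high, a log2 ratio of 0.221 ± 0.012. Genes with many counts, such as SEC61A1 and RAB7A, weigh most in these sums.

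Within the secretory class the 2 stages differed in their counts, a division made after the values were seen. Of the 19 genes of the ER and Golgi, 15 were higher and 4 lower, with a median of 0.228, and the medians by repeat were 0.197, 0.269, 0.267 and 0.237. Of the 11 genes that act after the Golgi (exocytic Rabs, surface and vesicle SNAREs and EXOC8), 4 were higher and 7 lower, with a median of −0.418. Their medians by repeat were −0.201, −0.344, −0.333 and −0.391. Among all listed genes 58.8% were higher, and the lower ones had a median of −0.482. All genes of both stages kept their direction in each repeat, so the counts fixed the signs of the medians by repeat, which add no support. Upper-quartile scaling shifted the medians of the 2 stages alike, to 0.003 and −0.643. The stages also differed in base composition and level, with a median transcript GC content of 40.9% and a median of 2287 normalised counts for the ER and Golgi genes, and of 52.7% and 789.7 for the genes after the Golgi, and the part of either in the division was not tested. In the endosomal class 6 of 8 Rabs and regulators were higher, with a median of 0.299.

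**Figure D3:**
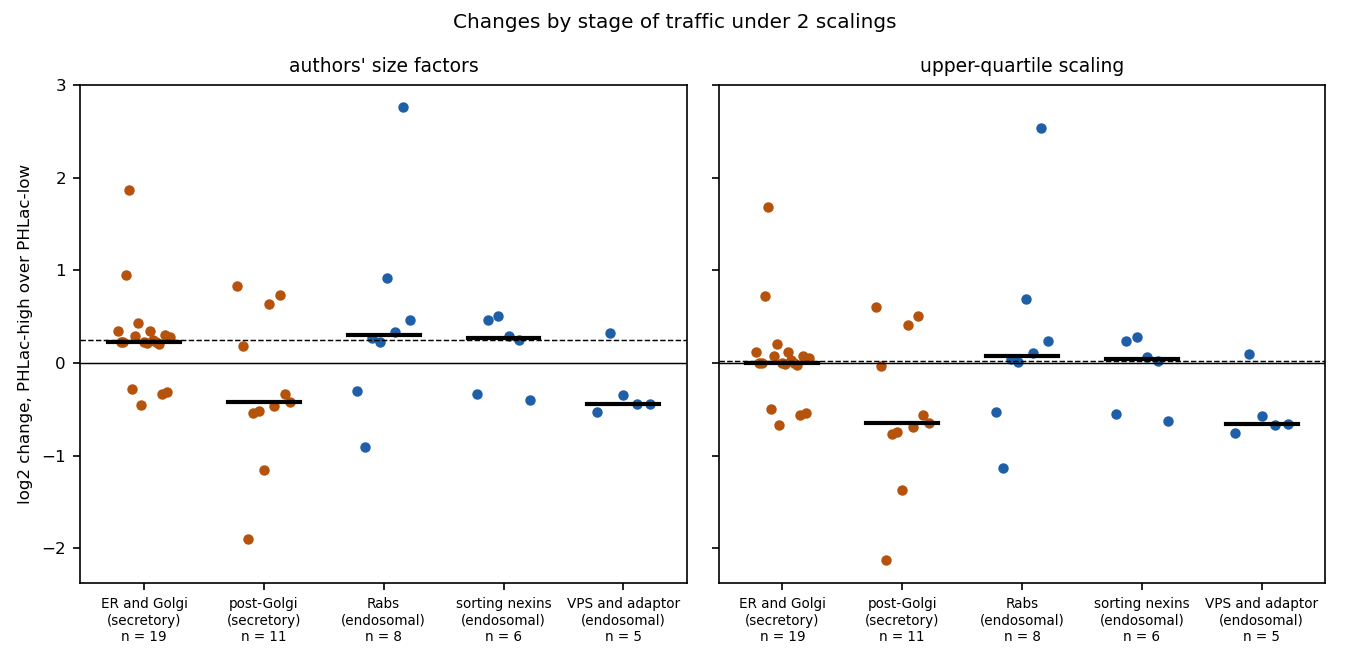
Change of each secretory (orange) and endosomal (blue) gene by stage, as log2 of PHLac-high over PHLac-low (vertical axis), with the authors' size factors (left) and with upper-quartile scaling (right). Thick bars are medians, the dashed line is the median of all listed genes, and the other scaling moves all genes down by about the same amount (post-Golgi median −0.418 and −0.643).

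Genes after the Golgi ranged from RAB3A at −1.90 to EXOC8 at 0.83. Repeat 4 had the smallest rise of RAB7B, RAB33A, RAB38, SNX25 and EXOC8, the smallest fall of RAB3A, and the largest falls of SEC31B, RAB6B and TRAPPC6A. Without the block, 18 of the 54 genes passed, 13 higher and 5 lower, against 31% of all listed genes.

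Direction moved with base composition. Transcripts of the higher vesicle traffic genes had a median GC content of 41% and those of the lower ones 53.4%, and among all listed genes the medians were 46.6% and 56.8%. Spearman's rho of change with GC content was −0.362 over the 54 genes and −0.263 over the 3509 listed genes with a value. The correction for GC content and length moved the median of the 54 genes from 0.227 to 0.019 and that of the listed genes to 0.10, while RAB7B, RAB30, EXOC8, RAB3A and SNAP25 still passed.

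**Figure D4:**
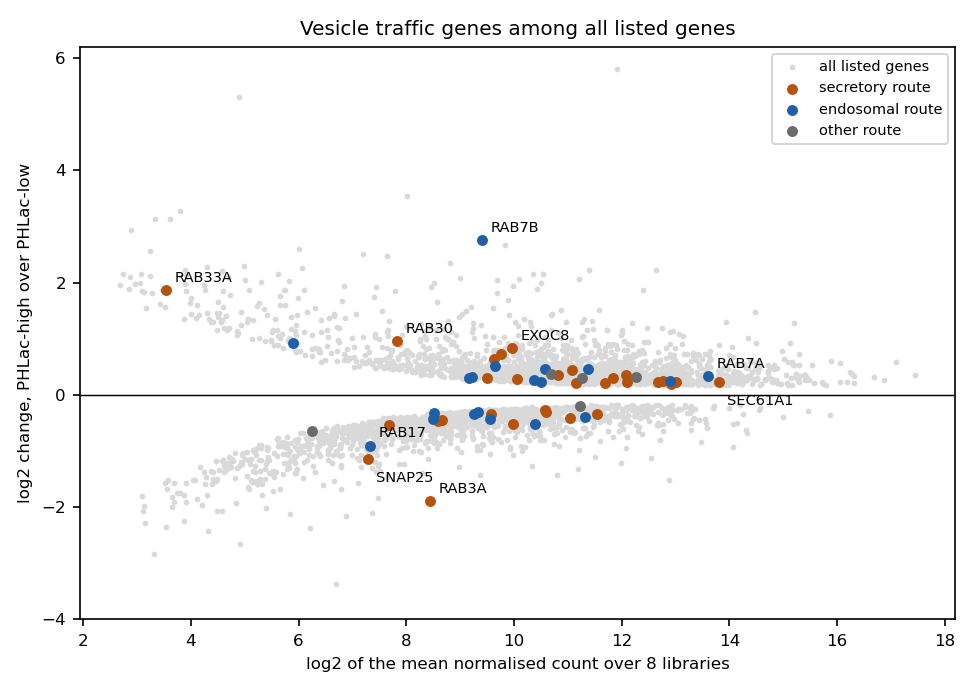
Change (vertical axis, log2 of PHLac-high over PHLac-low) against mean level (horizontal axis, log2 of the mean normalised count over 8 libraries) of the 54 vesicle traffic genes in colour and all listed genes in grey. The empty band around 0 reflects that only called genes were listed. RAB7B (2.76) and RAB3A (−1.90) stand away from most genes of their level. SNAP25 (−1.15) lies among other listed genes of like level and fall, such as FOXL1 (−1.199).

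The genes with the largest changes lie on several chromosomes (GRCh38, GENCODE release 29). RAB7B spans chr1:205976740-206003461 and EXOC8 chr1:231332753-231337852, both on the minus strand. RAB3A spans chr19:18196784-18204074 (minus) and SNAP25 chr20:10218830-10307418 (plus). RAB30 spans chr11:82973133-83071923 and RAB38 chr11:88113242-88175467, both minus, and STX3 lies on the same chromosome at 59713456 to 59805882 (plus). All are protein-coding. Exons of 29 of the 54 genes overlap exons of another gene, 11 on the same and 22 on the opposite strand, and for these the reads of the partners cannot be separated from the deposited values.

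Because the study concerns STAT3, the promoters were searched for the palindrome that STAT dimers bind, TTCNNNGAA, within 250 bases upstream of the RefSeq start. A promoter was found for 44 of the 54 genes. The palindrome occurred in 3 of them (6.82%), RAB30, SEC61G and SNX25, and in 6.78% of 27305 promoters of all genes, so the 2 shares were alike. All 3 belong to the 29 higher genes with a promoter, and 0 of the 15 lower genes held it. The stretches around the matches are shown 5′ to 3′ on the gene's strand, from RefSeq on GRCh38.p14, with the palindrome in capitals. Only the first RefSeq start of each gene was searched. For SEC61G and SNX25 the stretch lies inside the gene's GENCODE span (chr7:54752250-54759974 and chr4:185204237-185370185), so it precedes an inner start. A match describes letters only and shows no binding.
RAB30, chr11:83071914-83072042, minus strand, palindrome 85 bases before the start: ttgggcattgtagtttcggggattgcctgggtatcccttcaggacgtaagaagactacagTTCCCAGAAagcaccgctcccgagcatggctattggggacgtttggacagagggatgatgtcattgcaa
SEC61G, chr7:54759272-54759400, minus strand, palindrome 129 bases before the start: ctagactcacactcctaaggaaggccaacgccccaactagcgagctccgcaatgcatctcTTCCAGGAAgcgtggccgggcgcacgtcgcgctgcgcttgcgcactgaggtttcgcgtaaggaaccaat
SNX25, chr4:185209348-185209438, plus strand, palindrome 228 bases before the start: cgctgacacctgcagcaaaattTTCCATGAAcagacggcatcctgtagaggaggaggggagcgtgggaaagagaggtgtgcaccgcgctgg

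Of these 3 genes, RAB30 had the largest change (0.95) and SEC61G the smallest (0.346). RAB7B, RAB3A, STX3 and EXOC8 had a promoter in the table without the palindrome. The cAMP response element (TGACGTCA), found in 1.77% of all promoters, and the heat shock, ER stress and CLEAR elements, found in 0.439%, 0.0806% and 0.33%, occurred in 0 of the 44, as did the left portion of the RE1 element (TTCAGCACC; 0.3% of all). The CCAAT box (CCAAT) occurred in 25% of the 44 and 33% of all. Motifs were searched on both strands.

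Other genes of these pathways gave the following, each list with its listed members only. To be listed is to have been called by the authors, which held for 16.2% of the 20052 protein-coding genes in RefSeq, and 58.8% of all listed genes were higher, with a median of 0.245. Of 22 genes of ER cargo export and retrieval, 7 were listed, 6 higher and 1 lower, with a median of 0.255. SAR1A, the GTPase that starts the COPII coat, was higher by 0.503 ± 0.055, and MIA3, the export factor for collagen, was lower by −0.245. Of 32 genes of Golgi structure and tethering, 5 were listed, 4 higher and 1 lower (median 0.328), led by the golgin GCC1 at 0.520. Of 32 genes of endocytosis, 10 were listed, 6 higher and 4 lower (median 0.231). EHD1, an ATPase of endocytic recycling, went from 3780, 3896, 3600 and 4097 normalised counts to 7235, 6617, 5923 and 7112, a change of 0.804 ± 0.058 in which the groups stood far apart. Under upper-quartile scaling the medians of these 3 lists were 0.030, 0.104 and 0.006. Each then had 1 member passing as higher, and 1, 1 and 4 members passed as lower.

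Of 36 genes of lysosomes and the proton pump, 13 were listed, 11 higher and 2 lower. Their median of 0.278 was close to that of all listed genes, and under upper-quartile scaling it was 0.053, with 3 members passing as higher and 2 as lower. The lysosomal hydrolase GLA was higher by 0.668 and the pump subunit ATP6V1G1 by 0.542. Of 22 ESCRT genes without a VPS name 2 were listed, CHMP1B (0.341) and UBAP1 (0.314), both higher, while VPS37D of the same machinery was lower.

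Stress genes also differed between the fractions. Of 24 genes of ER protein folding and the unfolded protein response, 12 were listed, 11 higher and 1 lower, with a median of 0.394, and of 0.170 under upper-quartile scaling, where 5 passed as higher and 1 as lower. HERPUD1 was higher by 0.739 and XBP1 by 0.530. The summed counts of the 12 were 123102 to 303426 in PHLac-low and 155398 to 360293 in PHLac-high. All 13 genes of a heat shock list were listed and higher, with a median of 1.287. The list also holds HSPA8 (0.558) and HSP90AB1 (0.358), constitutive forms whose many counts weigh heavily in its sums. Under upper-quartile scaling 12 of the 13 were higher, 11 of them passing, and the median was 1.062. Their sums, 394536 to 558256 in PHLac-low and 597046 to 843600 in PHLac-high, did not overlap. Their part in the changes of the traffic genes was not tested.

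Markers of cell types were few among the listed genes. Of 6 epithelial markers 1 was listed, KRT19, at 14890 to 22697 normalised counts in PHLac-low and 14790 to 24031 in PHLac-high. Of 6 mesenchymal markers 2 were listed, both lower in PHLac-high, with sums of 247 to 471 in PHLac-low and 148 to 258 in PHLac-high. Of 5 leukocyte markers 2 were listed, PTPRC lower (−1.359) and CD68 higher (0.554), and none of 4 endothelial markers was. The other markers were not analysed here, so the label could be checked no further.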

How the data were processed

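The authors deposited, for each of 3666 genes and 8 libraries, a read signal divided by a size factor per library, a log2 fold change between the fractions, and an adjusted p-value of at most 0.050. Per the submitters' processing notes STAR, SAMtools, Subread, DESeq2 and hg38 were used, and their settings are not given in the sources used here. Groups and repeat numbers come from the titles, and the series' design states the pairing. Libraries with the same number deviated together from their groups (correlations of 0.534 to 0.763 across genes).

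Differences were tested with limma 3.58.1 (R 4.3.3), after log2 transformation of the normalised counts with a pseudocount of 1, with the mean-variance trend, the repeat as a block and Benjamini-Hochberg adjustment over all listed genes at 0.05, without a filter on low values. A fold change on this scale understates the change of low genes. All 8 columns gave 100% whole multiples (within 0.01 read) of 1 step, with size factors of 0.755 to 2.09, and the reads recovered this way entered edgeR 4.0.16 and DESeq2 1.42.0 as alternatives. For 4 of the columns this recovery had too few low values for an independent check of the step. The other alternatives were other scalings, pseudocount 0.1, a mean count of at least 100, a correction for GC content and length by lowess (span 0.3), no block, and leaving out each repeat.

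The members, roles and other lists were chosen with earlier results of these data known, and the promoter motifs after the data were seen. Genes described in most detail were the 6 largest increases and decreases, the 3 genes with the most counts in each class, and the largest change of each family with 3 or more genes, with the listed coat, channel and endosomal Rab genes; the other members are given with their change, except 1 that is not reported here. Gene positions and overlaps come from GENCODE release 29 and promoters from RefSeq.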

Additional observations from a re-analysis of the deposited data

How the results depend on the processing

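The counts of 33 higher and 21 lower genes were the same with edgeR and DESeq2 with the block and with a pseudocount of 0.1. Higher calls numbered 19 with median-of-ratios scaling (40.6% of all listed genes), 10 with upper-quartile scaling (23.2%), 16 after GC and length correction (39.6%), 13 without the replicate block (20.3%) and 8 at a change of at least 0.5. Lower calls numbered 5 without the replicate block (10.7%) and 7 at a change of at least 0.5, a change that 38.9% of all listed genes reached in either direction. Leaving out each repeat gave 31 to 33 higher and 20 to 21 lower calls. The share of calls that were higher was 61.1% in the main analysis (58.8% of the calls over all listed genes), 47.5% with median-of-ratios scaling (49.6%), 32.3% with upper-quartile scaling (36%), 50% after the correction (59.4%) and 72.2% without the block (65.5%). Median-of-ratios scaling, also taken over the called genes only, moved the median of all listed genes from 0.245 to 0.128.

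The secretory median (0.226) became 0.108 with median-of-ratios scaling, 0.001 with upper-quartile scaling, 0.013 after GC and length correction and 0.069 as a mean, and the endosomal median (0.248) became 0.130, 0.023, 0.020 and 0.164. Without the Rabs the endosomal median was −0.331 and the difference 0.558, on a nearly even split of higher and lower genes. Leaving out each repeat gave 0.200 to 0.243 for the secretory median, 0.243 to 0.272 for the endosomal median and −0.063 to −0.002 for their difference. RAB10 reversed to −0.037 under upper-quartile scaling and to −0.003 after the correction. Of the 21 genes described in most detail, 11 did not pass without the replicate block and all 21 passed without each repeat. The causes were not tested. Depth limits RAB33A most, with 2 to 27 reads per library.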
